A study of Danio rerio with 23 samples.

Results

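The zebrafish genes tpbga (ENSDARG00000099609), ism1 (ENSDARG00000020541), lmo4a (ENSDARG00000013853) and prrx1b (ENSDARG00000042027) are 4 of the 31743 genes in the deposited tables, and 4 of the 19504 genes with enough reads to be tested. They were selected on their measured changes at 7.5 hours post fertilisation (hpf): each was lower in embryos with extra Dkk1b, a secreted Wnt antagonist, and higher in embryos with extra Wnt8a, a Wnt ligand. The genes were thus chosen by the 7.5 hpf values, which are given here as a description without a test. The genes are tested on the comparisons at 5.5 hpf, whose fold changes were not used in the choice. No test of prrx1b is read there, for lack of reads. The fits take their spread from all 23 libraries, so the spread at 7.5 hpf enters these tests. Tests at 7.5 hpf are of gene lists and relatives.

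RNA of whole zebrafish embryos was sequenced from 2 crosses of transgenic carriers to wild-type fish. The groups were hs:dkk1b/+ embryos at 5.5 and 7.5 hpf (3 libraries each), hs:wnt8a/+ embryos at 5.5 hpf (2 libraries) and 7.5 hpf (3 libraries), and for each of these the genotypically wild-type siblings of the same cross (3 libraries each), 23 libraries in 8 groups. In both lines a heat-shock promoter drives the transgene in the whole embryo, carriers were recognised by their fluorescence, and the siblings went through the same heat shock. Crosses of hs:dkk1b were heated to 37 °C for 60 minutes and those of hs:wnt8a to 39 °C for 30 minutes, with recovery at 29 °C. Embryos were heated in groups of 10 and came from several mating pairs, but separate clutches per library are not stated, so a p-value here measures library-to-library spread that may be technical. The time point field of the labels gives 5 and 7 hpf where the titles give 5.5 and 7.5 hpf, and the groups are named by their titles.

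In the canonical Wnt pathway, ligands such as Wnt8a bind Frizzled receptors with the co-receptor Lrp6, β-catenin accumulates, and Lef and Tcf factors switch on target genes. Dkk1 proteins block this by binding Lrp6. In the fish gastrula, Wnt signals from the margin give the neural plate its posterior character and maintain the mesoderm progenitors. Several targets are themselves inhibitors of the pathway and form feedback loops. The protein encoded by tpbga, a membrane protein with leucine-rich repeats also called Waif1a, is known in zebrafish as such a Wnt-induced inhibitor that acts on Lrp6. The gene ism1 encodes isthmin 1, a secreted protein named after its expression at the midbrain-hindbrain boundary of Xenopus. The gene lmo4a encodes a LIM-only cofactor that binds Ldb proteins and no DNA itself, and prrx1b a paired-related homeobox transcription factor known from mesenchyme.

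Total counts per library ran from 13845788 to 20467185. Levels are given as CPM (counts scaled to a common library size with TMM factors). The transgenes were read first. In hs:dkk1b embryos dkk1b was at 19063, 2329 and 3500 CPM at 7.5 hpf and 3952, 2872 and 2292 CPM at 5.5 hpf, against 17.3 to 55.2 CPM in their siblings. The first of the 7.5 hpf libraries also had the heat-shock gene hsp70l at 2654 CPM, as did its same-numbered sibling library at 1228 CPM, against 40.7 to 78.0 CPM in the other 4 libraries of that cross and time. The symbol wnt8a belongs to 2 identifiers, which may share reads. The copy ENSDARG00000052910 was at 3647, 4218 and 3092 CPM in hs:wnt8a embryos at 7.5 hpf, against 179.7, 2.33 and 14.8 CPM in siblings. At 5.5 hpf it was at 3447 and 2664 CPM in hs:wnt8a embryos, against 588, 392 and 721 CPM in siblings, although siblings of hs:dkk1b held 5.06 to 7.62 CPM. The libraries labelled siblings of hs:wnt8a at 5.5 hpf thus held the transcript of this copy well above the other cross, and every hs:wnt8a comparison at that time is read against such siblings. The other copy went the other way between crosses. At 5.5 hpf it was at 12.2 to 24.9 CPM in siblings of hs:wnt8a, against 56.3 to 64.9 CPM in siblings of hs:dkk1b. In hs:wnt8a embryos at 5.5 hpf it was at 18.7 to 18.8 CPM. The cause was not tested. Markers of mesoderm, endoderm, ectoderm, enveloping layer, yolk syncytial layer and germ cells were present in all libraries (summed levels of 25.8 CPM or more per list), and 4 genes of later tissues summed to at most 13.7 CPM.

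At 7.5 hpf, tpbga was at 24.2, 27.6 and 25.7 CPM in hs:dkk1b embryos, against 85.6, 62.8 and 85.6 CPM in siblings. It was at 222, 170.2 and 150.3 CPM in hs:wnt8a embryos, against 114.4, 86.8 and 99.5 CPM in siblings. All 3 hs:dkk1b libraries lay below, and all 3 hs:wnt8a libraries above, every sibling library of their cross at that time. The log2 fold changes from edgeR's quasi-likelihood fit were -1.60 ± 0.17 with hs:dkk1b and 0.85 ± 0.17 with hs:wnt8a (SE).

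The secreted factor gene ism1 had nearly the same log2 fold change with hs:dkk1b at 7.5 hpf and a smaller one with hs:wnt8a. It was at 26.9, 29.1 and 26.1 CPM in hs:dkk1b embryos, against 77.0, 90.7 and 77.3 CPM in siblings. In hs:wnt8a embryos it was at 118.7, 159.7 and 138.8 CPM, against 84.8, 96.4 and 97.8 CPM in siblings. Neither pair of groups overlapped, and the log2 fold changes were -1.58 ± 0.22 and 0.58 ± 0.21 (SE). The hs:dkk1b libraries averaged 27.4 ± 1.58 CPM (SD, n = 3), while dkk1b itself differed several-fold among them.

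The cofactor gene lmo4a was at 53.9, 80.6 and 53.5 CPM in hs:dkk1b embryos at 7.5 hpf, against 161.9, 199.8 and 153.7 CPM in siblings. In hs:wnt8a embryos it was at 417.8, 291.4 and 227.7 CPM, against 275.3, 142.5 and 166.2 CPM in siblings. The hs:dkk1b groups did not overlap, but the hs:wnt8a groups did: the first sibling library was above the third transgenic one. The log2 fold changes were -1.45 ± 0.33 and 0.68 ± 0.32 (SE). In the hs:wnt8a cross the library numbered 1 was the highest of its group among both transgenic and sibling libraries, and that sibling library also held the most wnt8a, 179.7 CPM; the part of this in the overlap was not tested.

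The homeobox gene prrx1b was close to absent in most groups. At 7.5 hpf it had 1, 0 and 2 reads in the hs:dkk1b libraries, against 16, 30 and 9 reads in siblings. In hs:wnt8a embryos it had 45, 85 and 55 reads (2.71, 4.10 and 2.79 CPM), against 9, 15 and 14 reads (0.46, 0.73 and 0.64 CPM) in siblings. Summed over libraries and scaled to depth, siblings of hs:dkk1b held 17.2 times the reads of hs:dkk1b embryos (95% exact interval 5.60 to 86.2), and hs:wnt8a embryos 5.31 times those of their siblings (3.73 to 7.75). These intervals cover counting error only. No library at 5.5 hpf had more than 5 reads, so prrx1b entered the fit through its 7.5 hpf libraries alone.

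**Figure D1:**
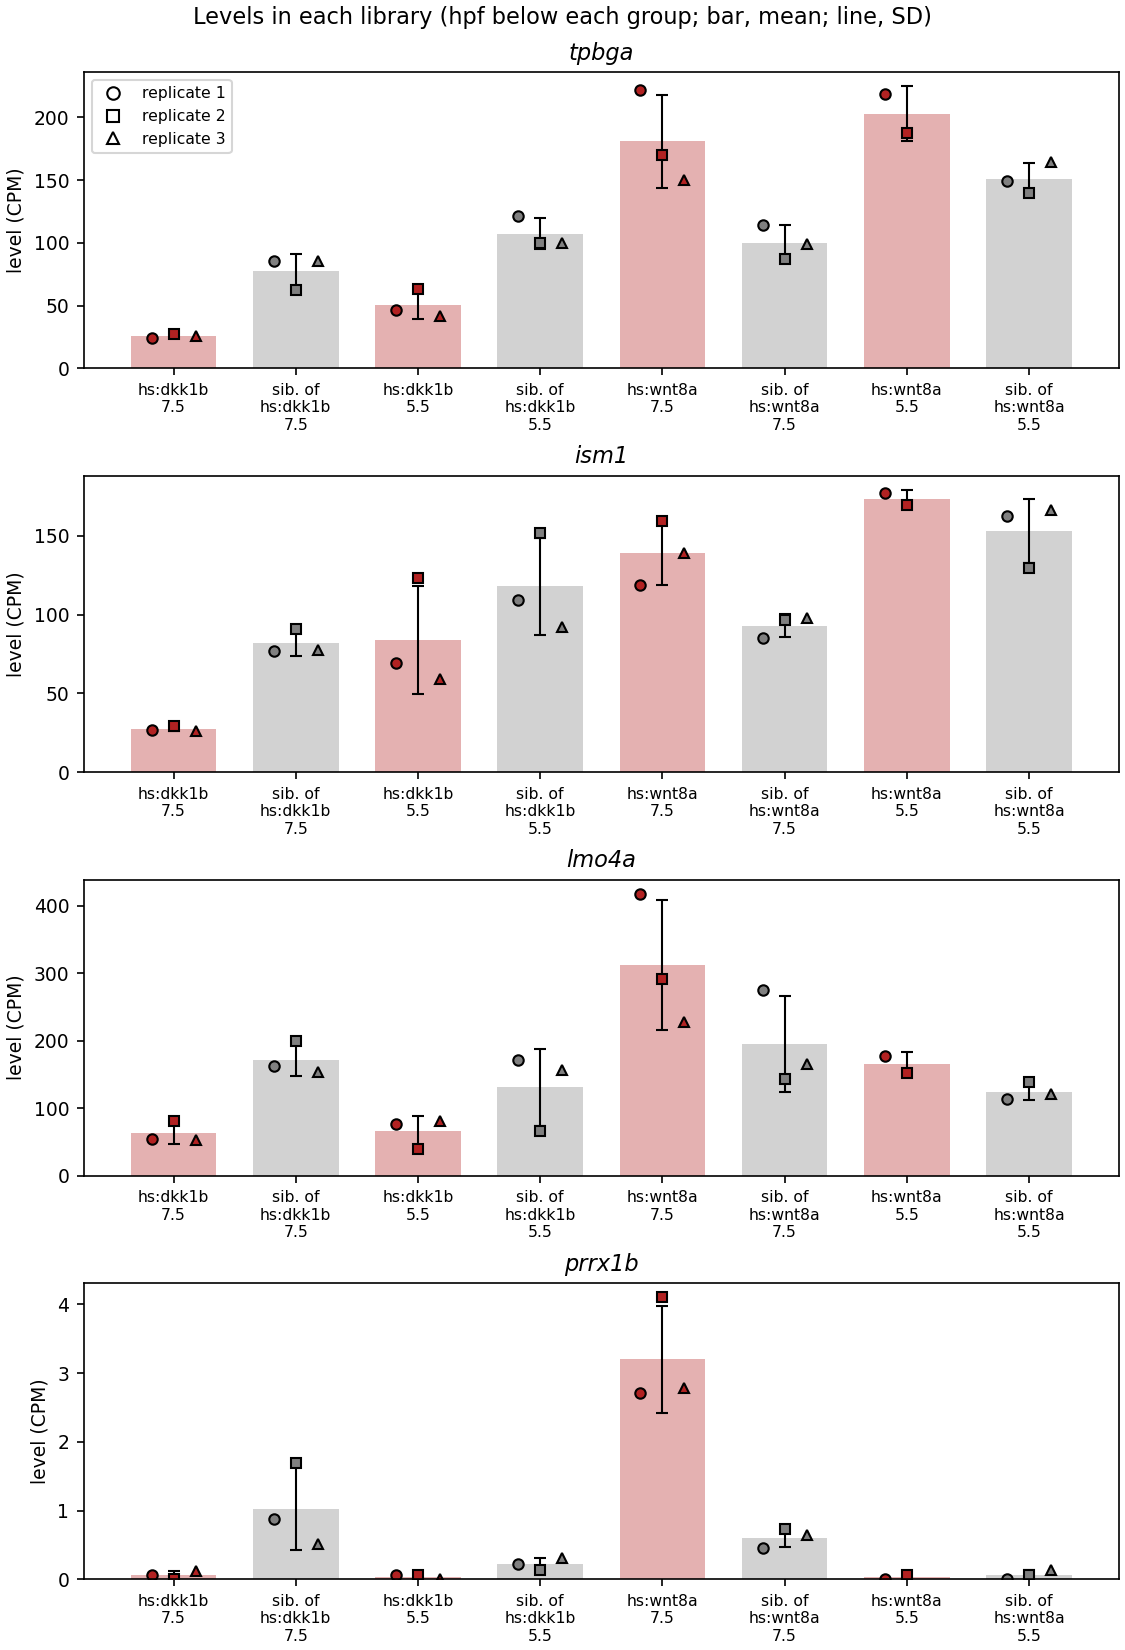
Level in CPM (y axis, linear from 0) of each gene in every library, with transgenic groups in red left of their siblings in grey, and the hpf under each group; bars are means, lines SDs and symbols single libraries. The hs:dkk1b bars at 7.5 hpf are at 25.8 CPM for tpbga, 27.4 CPM for ism1 and 62.7 CPM for lmo4a, below their siblings, and the hs:wnt8a bars at 7.5 hpf stand above theirs.

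Within same-numbered libraries at 7.5 hpf, every ratio of tpbga, ism1 and lmo4a had the sign that chose the genes. The log2 ratios of hs:dkk1b to sibling libraries were -1.82, -1.19 and -1.74 for tpbga, -1.52, -1.64 and -1.57 for ism1, and -1.59, -1.31 and -1.52 for lmo4a. The log2 ratios of hs:wnt8a to sibling libraries were 0.96, 0.97 and 0.59 for tpbga, 0.48, 0.73 and 0.51 for ism1, and 0.60, 1.03 and 0.45 for lmo4a. For lmo4a, whose hs:wnt8a groups overlapped, each transgenic library was thus above its same-numbered sibling library. Same-numbered libraries deviated from their group means together at 7.5 hpf, and the numbers were taken to pair them. With hs:wnt8a this rested mainly on number 1: transgenic library 2 correlated with sibling library 3 (0.351) as it did with sibling library 2 (0.307), and transgenic library 3 with sibling library 2 (0.511) as with sibling library 3 (0.509). With the number as a block, the standard errors at 7.5 hpf shrank most for lmo4a, to -1.47 ± 0.12 with hs:dkk1b and 0.70 ± 0.12 with hs:wnt8a (log2 fold change, SE).

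All 4 genes met the choice's condition in that blocked fit. Among all 19504 genes at 7.5 hpf, the fit without the block put 29 lower with hs:dkk1b (0.149%) and 1 higher with hs:wnt8a (0.00513%), with no gene in both counts. DESeq2 without the block had 3 genes in both counts, tpbga, prrx1b and nkd1. The blocked fit put 115 lower (0.59%) and 20 higher (0.103%), and 10 genes were in both. These were tpbga, ism1, lmo4a, prrx1b, the Wnt effector lef1, the feedback inhibitor nkd1, the ligand gene wnt8b, and en2a, her5 and pax3a, transcription factor genes of the midbrain-hindbrain region and the dorsal neural tube. A further 6 genes went the other way in both crosses, higher with hs:dkk1b and lower with hs:wnt8a: fezf2, rx3, fzd8a, shisa2a, sox2 and nkx2.7, of which fezf2 and rx3 mark the forebrain and eye field. The gene just inside the threshold was wnt8b (log2 fold changes -2.95 and 1.08) and the gene just outside was the transporter gene slc43a3b (-1.28 and 0.55). Groups did not overlap for all 4 chosen genes with hs:dkk1b, where 3.75% of genes tested were lower without overlap, and for 3 of the 4 with hs:wnt8a, where 2.48% were higher without overlap. Since these values chose the genes, the counts are no evidence about them.

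At 5.5 hpf, in a comparison outside the choice, tpbga was lower in hs:dkk1b embryos and the call depended on single libraries. It was at 46.7, 63.6 and 42.1 CPM in hs:dkk1b embryos, against 121.5, 99.95 and 100.2 CPM in siblings. The highest transgenic library lay well under the lowest sibling library. The log2 fold change was -1.08 ± 0.17 (SE; 95% interval -1.43 to -0.72), and tpbga fell by edgeR's quasi-likelihood test (adjusted p = 0.0125), one of 9 genes lower among those tested (0.0461%). With the block it was -1.09 ± 0.14 (SE, adjusted p = 0.00184 by edgeR), one of 45 lower genes (0.231%). Leaving out hs:dkk1b replicate 1 or 3, or sibling replicate 1, kept the log2 fold change between -1.02 and -0.96 but raised the adjusted p by edgeR to 0.122, 0.121 and 0.132. In a fit of these 6 libraries alone the log2 fold change was -1.08, with an adjusted p of 1 and no gene called. That fit did not call dkk1b itself, so a missing call there does not show that a gene was unchanged. The call of tpbga was kept by DESeq2 (adjusted p = 5.0e-06). By edgeR it was kept with RLE scaling (adjusted p = 0.0141) and without the filter (adjusted p = 0.00607).

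For ism1 and lmo4a at 5.5 hpf the call depended on the pairing of the libraries. In hs:dkk1b embryos ism1 was at 69.1, 123 and 59.1 CPM, against 109.2, 151.9 and 92.4 CPM in siblings. The groups overlapped because the libraries numbered 2 were the highest on both sides. The log2 fold change was -0.49 ± 0.21 (SE; 95% interval -0.93 to -0.05), which did not pass edgeR's test without the block (adjusted p = 1) and passed it with the block at -0.53 ± 0.09 (SE, adjusted p = 0.0174). The blocked fit was also that in which the choice's condition was met, so its spread is not independent of the choice. Without the block, the log2 fold change of ism1 was -0.88 when hs:dkk1b replicate 2 was left out, -0.29 without hs:dkk1b replicate 3 and -0.27 without sibling replicate 2, not called in any of these fits. In a fit of these 6 libraries alone it was -0.49 ± 0.31 (SE), not called.

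In hs:dkk1b embryos at 5.5 hpf lmo4a was at 76.9, 38.9 and 81.2 CPM, against 171.5, 65.8 and 156.2 CPM in siblings. Here the libraries numbered 2 were the lowest on both sides. The log2 fold change was -0.998 ± 0.328 (SE; 95% interval -1.68 to -0.31; adjusted p = 1 by edgeR) without the block and -0.96 ± 0.12 (SE, adjusted p = 0.00177 by edgeR) with it, in the fit that also gave the choice. In a fit of these 6 libraries alone it was -0.998 ± 0.412 (SE), not called. Without both libraries numbered 2, an alternative added after seeing the data, the log2 fold changes by edgeR were -1.32 for tpbga (adjusted p = 0.00309), -0.65 for ism1 (adjusted p = 0.256) and -1.05 for lmo4a (adjusted p = 0.675). The within-pair log2 ratios at 5.5 hpf were -1.38, -0.65 and -1.25 for tpbga, -0.66, -0.30 and -0.64 for ism1, and -1.16, -0.76 and -0.94 for lmo4a, all below 0.

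For prrx1b at 5.5 hpf, hs:dkk1b libraries had 1, 1 and 0 reads, against 3, 2 and 5 reads in siblings. Siblings held 5.42 times the depth-scaled reads of hs:dkk1b embryos, with a 95% exact counting interval of 1.15 to 50.8, and prrx1b did not pass edgeR's test with or without the block (adjusted p = 1 in both). Of the 3 better measured genes, groups did not overlap at 5.5 hpf for tpbga, where 2.34% of all genes tested were lower without overlap. The groups of prrx1b did not overlap either, but with so few reads, and with its entry into the fit through the 7.5 hpf libraries, nothing is read from that or from its test.

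**Figure D2:**
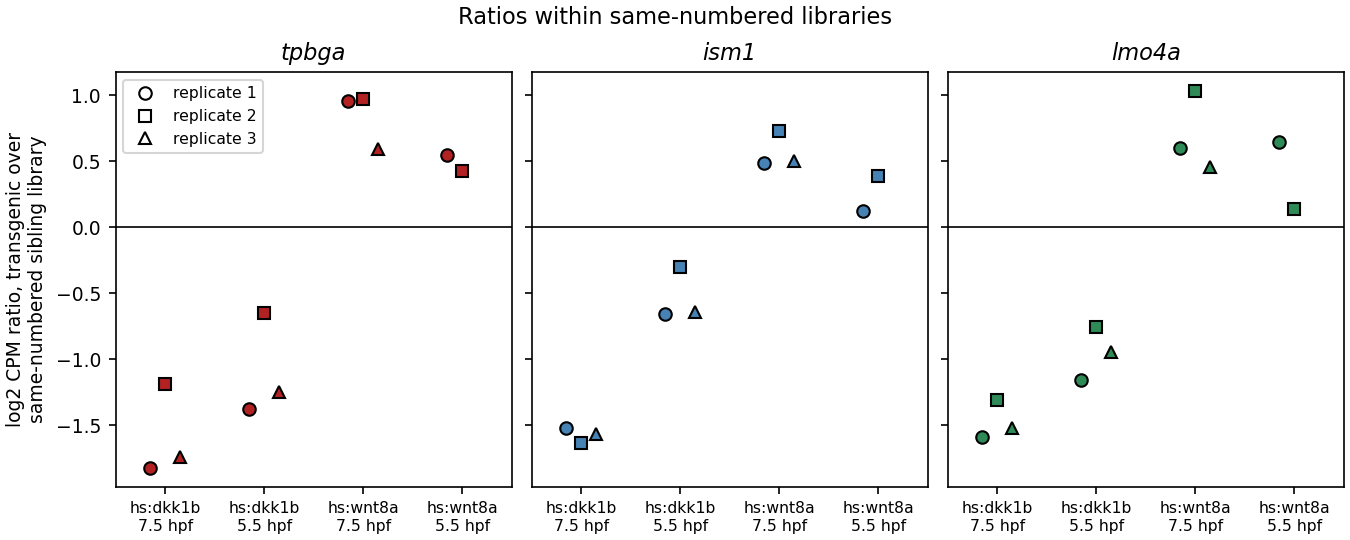
Log2 ratio of CPM (y axis) between each transgenic library and the sibling library of the same number, for tpbga, ism1 and lmo4a in the 4 transgene comparisons (x axis); each symbol is one pair. All hs:dkk1b pairs lie below 0, from -1.82 to -0.30, and all hs:wnt8a pairs above it, from 0.13 to 1.03. At the later time these signs are how the genes were chosen. With hs:wnt8a at the earlier time the numbers were not shown to pair the libraries, so those symbols are pairs by number only. The sibling library there without a same-numbered transgenic library is left out.

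With hs:wnt8a at 5.5 hpf none of the 3 better measured genes passed the test. In hs:wnt8a embryos tpbga was at 218.3 and 187.7 CPM, against 149.7, 139.4 and 164.5 CPM in siblings, a log2 fold change of 0.43 ± 0.18 (SE; 95% interval 0.04 to 0.81). For ism1 the levels were 177.4 and 169.6 CPM in hs:wnt8a embryos, against 162.6, 129.5 and 166.4 CPM in siblings, a log2 fold change of 0.18 ± 0.23 (SE; -0.30 to 0.67). For lmo4a they were 177.8 and 152.2 CPM in hs:wnt8a embryos, against 113.3, 138.1 and 121 CPM in siblings, a log2 fold change of 0.41 ± 0.36 (SE; -0.34 to 1.16). Both transgenic libraries lay above all 3 sibling libraries for each of these 3 genes, but 12.0% of all genes tested were higher without overlap in this comparison of 2 libraries with 3. The adjusted p by edgeR was 1 for all 3 genes. No gene of the 19504 was called higher (0.0%) or lower, and DESeq2 called 5 genes. Only 649 had an unadjusted p under 0.05 by edgeR, a smaller share than the 0.05 that uniform p-values would give without any change. The edgeR test thus did not call wnt8a itself, at 3447 and 2664 CPM in hs:wnt8a embryos, against 588, 392 and 721 CPM in siblings. A missing call in this comparison therefore does not show that a gene was unchanged. For prrx1b the hs:wnt8a libraries had 0 and 1 reads and the sibling libraries 0, 1 and 2, too few for a fold. Besides the wnt8a reads in siblings, the 15 chaperone genes of the heat-shock response differed here: they summed to 55617 to 56738 CPM in hs:wnt8a embryos and 37040 to 52290 CPM in siblings, with none of the 15 called. The part of either in these values was not tested.

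Siblings of both crosses were compared at 5.5 hpf, where line, heat-shock regime, clutch and the wnt8a reads in siblings of hs:wnt8a (392 to 721 CPM, against 5.06 to 7.62 CPM in siblings of hs:dkk1b) cannot be told apart. Siblings of hs:wnt8a had tpbga at 139.4 to 164.5 CPM, against 99.95 to 121.5 CPM in siblings of hs:dkk1b. The log2 fold change was 0.50 ± 0.17 (SE; 95% interval 0.15 to 0.85), which did not pass edgeR's test (adjusted p = 0.0725) and passed DESeq2's (adjusted p = 0.0405). Of all genes tested, 1508 differed between these siblings (7.73%). The values were 0.38 ± 0.21 for ism1 and -0.08 ± 0.32 for lmo4a (log2 fold change, SE), with adjusted p by edgeR of 0.282 and 0.916. Leaving out replicate 1 or 3 of the hs:dkk1b siblings gave lmo4a the opposite sign, 0.16 and 0.07. For prrx1b the siblings of hs:wnt8a had 3 reads in all, against 10 in siblings of hs:dkk1b, a depth-scaled 3.44 times as many in siblings of hs:dkk1b (95% exact counting interval 0.885 to 19.4; adjusted p = 0.244 by edgeR).

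The 4 genes differed in how their levels moved between the times, described here without a test because the 7.5 hpf libraries were used in the choice. In siblings, tpbga and ism1 were lower at 7.5 than at 5.5 hpf, with log2 differences of -0.46 ± 0.17 and -0.53 ± 0.21 in the hs:dkk1b cross and -0.59 ± 0.17 and -0.72 ± 0.21 in the hs:wnt8a cross (SE). In the same siblings lmo4a had log2 differences of 0.39 ± 0.32 and 0.65 ± 0.32 (SE). Siblings of hs:wnt8a held wnt8a reads at 392 to 721 CPM at 5.5 hpf and 2.33 to 179.7 CPM at 7.5 hpf. In that cross, stage and these reads cannot be told apart. In hs:dkk1b embryos the log2 differences between the times were -0.98 ± 0.17 for tpbga, -1.61 ± 0.22 for ism1 and -0.07 ± 0.33 for lmo4a. In hs:wnt8a embryos they were -0.17 ± 0.19 for tpbga, -0.32 ± 0.23 for ism1 and 0.92 ± 0.37 for lmo4a. The reads of prrx1b were more frequent at 7.5 hpf in hs:wnt8a embryos (185 against 1), in their siblings (38 against 3) and in siblings of hs:dkk1b (55 against 10), while hs:dkk1b embryos had 3 reads at 7.5 hpf and 2 at 5.5 hpf.

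The effect of hs:dkk1b at 7.5 hpf minus that at 5.5 hpf was, among the 3 better measured genes, furthest from 0 for ism1, at -1.08 ± 0.30 on the log2 scale (SE) and -1.04 ± 0.13 with the block. It was -0.52 ± 0.24 for tpbga and -0.46 ± 0.46 for lmo4a. The same difference for hs:wnt8a was 0.43 ± 0.25 for tpbga, 0.40 ± 0.32 for ism1 and 0.27 ± 0.49 for lmo4a. It is read against siblings whose wnt8a reads also differed between the times, and the part of those reads in it was not tested.

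Ordered by mean level over the 8 groups, tpbga ran from 25.8 CPM in hs:dkk1b embryos at 7.5 hpf to 203 CPM in hs:wnt8a embryos at 5.5 hpf, a 7.86-fold range. From low to high the groups were hs:dkk1b at 7.5 hpf, hs:dkk1b at 5.5 hpf, siblings of hs:dkk1b at 7.5 hpf, siblings of hs:wnt8a at 7.5 hpf, siblings of hs:dkk1b at 5.5 hpf, siblings of hs:wnt8a at 5.5 hpf, hs:wnt8a at 7.5 hpf and hs:wnt8a at 5.5 hpf, and 4 of the 7 neighbouring pairs overlapped. By mean, the hs:dkk1b groups thus lay at the low end and the hs:wnt8a groups at the high end, partly through the 7.5 hpf values that chose the gene. The ranges overlapped at both borders. The highest hs:dkk1b library at 5.5 hpf (63.6 CPM) was above the lowest hs:dkk1b sibling library at 7.5 hpf (62.8 CPM). The lowest hs:wnt8a library at 7.5 hpf (150.3 CPM) was below the highest hs:wnt8a sibling library at 5.5 hpf (164.5 CPM). The levels of ism1 had the same lowest and highest groups, at 27.4 and 173.5 CPM, a 6.34-fold range with 5 of 7 neighbouring pairs overlapping. In between, hs:dkk1b embryos at 5.5 hpf (83.8 CPM) lay among siblings and hs:wnt8a embryos at 7.5 hpf (139.1 CPM) below hs:wnt8a siblings at 5.5 hpf (152.8 CPM). For lmo4a the lowest groups were both hs:dkk1b groups (62.7 CPM at 7.5 hpf and 65.7 CPM at 5.5 hpf, which overlapped) and the highest hs:wnt8a at 7.5 hpf (312.3 CPM), with 6 of 7 neighbouring pairs overlapping. Only hs:wnt8a embryos and both sibling groups at 7.5 hpf had a mean prrx1b level above 0.3 CPM, in the order siblings of hs:wnt8a, siblings of hs:dkk1b and hs:wnt8a, and the first 2 of these overlapped. Compared per transcript length in the deposited TPM values, lmo4a and tpbga had similar levels (medians over 23 libraries of 155.6 and 140.9 TPM), ism1 was lower (54.6 TPM) and prrx1b did not exceed 3.38 TPM.

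Wnt feedback and target genes were set beside the 4 genes. The list was drawn up with earlier results of these data known, so its counts are no independent evidence. Its members nkd1 and lef1 are also among the 10 genes that met the choice's condition. By edgeR's test with hs:dkk1b, 9 of all 19504 genes fell at 5.5 hpf and 29 at 7.5 hpf. Of the 24 tested in the list, 5 fell at 5.5 hpf and 11 at 7.5 hpf, and none rose. At 5.5 hpf these were the transcription factor genes msx1b (log2 fold change -2.29), sp5a (-2.21), gbx1 (-2.01) and sp8b (-1.79) and the feedback inhibitor nkd1 (-1.48). At 7.5 hpf they included nkd1 (-1.91), the inhibitor axin2 (-2.42), sp5a (-2.98) and lef1 (-1.22). The list's median log2 fold change was -1.11 at 7.5 hpf and -0.72 at 5.5 hpf, against 0.01 over all genes tested at both times. With the block 16 fell at 7.5 hpf and 11 at 5.5 hpf, against 115 and 45 of all genes. The 3 better measured genes lay inside the range of this list at both times, tpbga and lmo4a further from 0 than its median at both and ism1 at 7.5 hpf.

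With hs:wnt8a none of the 24 was called in either direction without the block, and the list's medians were 0.23 at 7.5 hpf and 0.18 at 5.5 hpf, against 0.00 over all genes tested at both times. With the block nkd1 (0.79 ± 0.14) and lef1 (0.47 ± 0.08, log2 fold change, SE) rose at 7.5 hpf, both among the 10 genes of the choice. Of all genes tested, 20 rose in that fit. The highest of the 24 at 7.5 hpf, nkd1 at 0.80 without the block, was below tpbga at 0.85, a value that chose tpbga. For tpbga, ism1 and lmo4a the value with hs:dkk1b at 7.5 hpf was further from 0 than that with hs:wnt8a, as it was for axin2 (-2.42 and 0.56), sp5a (-2.98 and 0.61) and lef1 (-1.22 and 0.47). This difference in size was not tested.

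**Figure D3:**
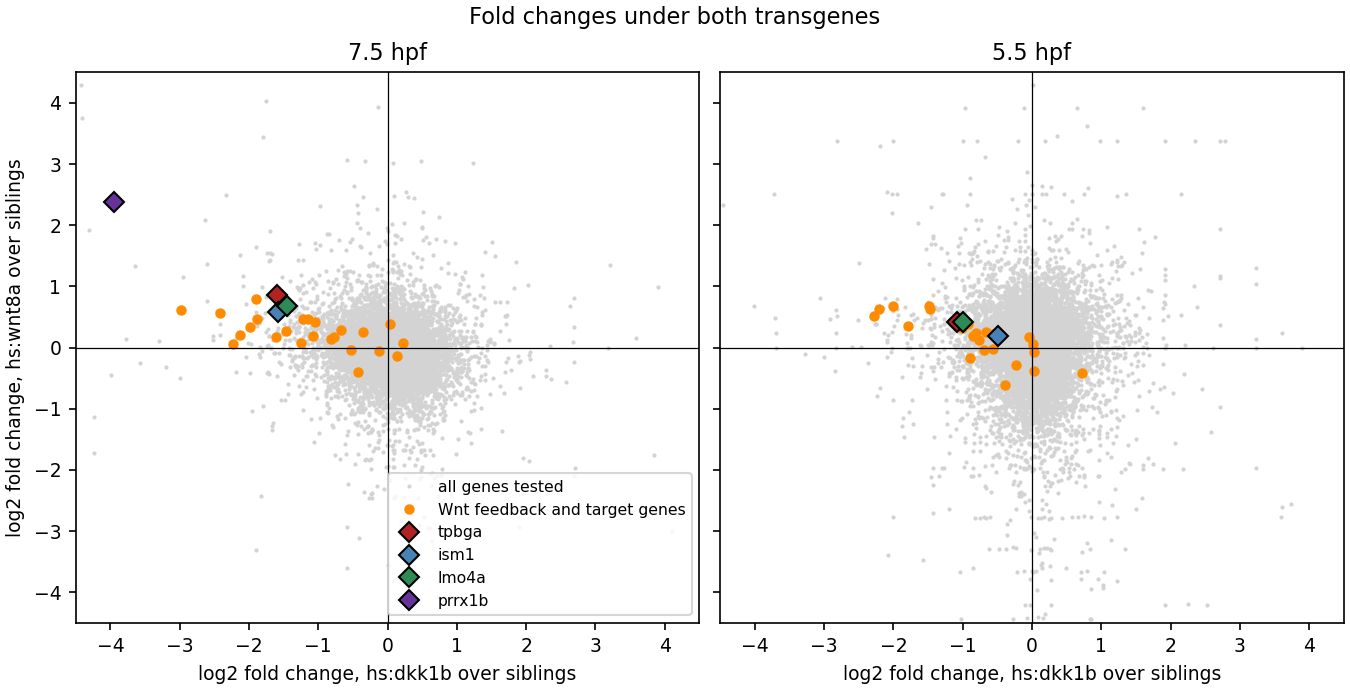
Log2 fold change with hs:dkk1b (x axis) against that with hs:wnt8a (y axis), each over its siblings, at 7.5 hpf (left) and 5.5 hpf (right); grey points are all genes tested, orange the Wnt feedback and target genes, diamonds the named genes. At 7.5 hpf the diamonds lie at the upper left, which is how they were chosen, and at 5.5 hpf tpbga, ism1 and lmo4a lie on the same side nearer to 0; prrx1b is left out at 5.5 hpf for lack of reads, and 24 genes at 7.5 hpf and 64 at 5.5 hpf lie outside the range.

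Other gene lists, not all separate from the Wnt list, moved in the same embryos. The mesoderm list shares tbxta, tbx16, msgn1 and cdx4 with the Wnt list, and the ventral list shares msx1b and cdx4 with it. Genes of the paraxial and tailbud mesoderm (16 tested) had median log2 fold changes with hs:dkk1b of -0.49 at 7.5 hpf and -0.55 at 5.5 hpf. The median over all genes tested was 0.01 at both times. By edgeR's test 2 of the 16 fell at 7.5 hpf, the T-box genes tbx16l (-1.14) and tbxta (-1.61), and none at 5.5 hpf. Of all 19504 genes, 29 and 9 fell. With the block 10 and 6 of the list fell, against 115 and 45 of all genes. The 16 genes in the tables summed to 1625 to 1773 CPM in hs:dkk1b embryos and 2265 to 2728 CPM in siblings at 7.5 hpf. At 5.5 hpf they summed to 1799 to 2497 CPM in hs:dkk1b embryos and 2844 to 3260 CPM in siblings. In hs:wnt8a embryos at 7.5 hpf they summed to 2548 to 3215 CPM, against 2496 to 2989 CPM in siblings, with none called. In whole embryos, fewer cells of a type and less RNA per cell cannot be told apart, and the part of the mesoderm in the lower levels of tpbga, ism1 and lmo4a was not tested.

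Genes of the anterior neural plate moved the other way. Of 13 tested, 9 fell with hs:wnt8a at 7.5 hpf by edgeR's test, among them six3b (-3.66), six7 (-5.47), rx3 (-4.72) and hesx1 (-1.15), with a median of -2.05. In that comparison 18 of all 19504 genes tested fell, and the median over all of them was 0.00. With hs:dkk1b at 7.5 hpf none was called without the block and fezf2 (0.73) and rx3 (0.52) rose with it, against 31 of all genes. The 14 listed genes summed to 178.6 to 255.7 CPM in hs:wnt8a embryos and 763.5 to 982.6 CPM in siblings at 7.5 hpf. Of the 16 ventral and BMP genes, only msx1b fell with hs:dkk1b, at both times, and none was called with hs:wnt8a (with the block, 4 fell with hs:dkk1b at 7.5 hpf and 3 at 5.5 hpf, and bmp7a and gata2a rose at 7.5 hpf). Over all genes tested, 29 fell with hs:dkk1b at 7.5 hpf and 9 at 5.5 hpf (115 and 45 with the block). With the block 31 of all genes rose with hs:dkk1b at 7.5 hpf. None of the 15 chaperone genes was called with either transgene at either time, with or without the block. With hs:wnt8a all 15 had a positive log2 fold change at 5.5 hpf (median 0.34), as did 14 at 7.5 hpf (median 0.22). The median over all genes tested was 0.00 at both times, and none of them was called at 5.5 hpf without the block. With hs:dkk1b the chaperone medians were -0.01 at 5.5 hpf and -0.05 at 7.5 hpf. The part of this shift in the values of the 4 genes was not tested. Without both libraries numbered 1, which had the high hsp70l, the log2 fold changes with hs:dkk1b at 7.5 hpf were -1.48 for tpbga, -1.61 for ism1, -1.41 for lmo4a and -4.08 for prrx1b, whose fitted value depends on the prior count.

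Of 12 close relatives of the 4 genes, 7 were tested (tpbgb, ism2a, lmo1, lmo2, lmo3, lmo4b and prrx1a) and none was called by edgeR without the block. The second trophoblast glycoprotein gene tpbgb was at 11.6 ± 1.17 CPM in hs:dkk1b embryos and 11.1 ± 0.73 CPM in siblings at 7.5 hpf (SD, n = 3 each), with a log2 fold change of 0.07 ± 0.16 (SE), and of 0.09 ± 0.17 (SE) with hs:wnt8a. The second lmo4 gene, lmo4b, was at 45.5 ± 6.67 CPM in hs:dkk1b embryos and 73.7 ± 6.61 CPM in siblings at 7.5 hpf (SD, n = 3 each). Its log2 fold change of -0.70 ± 0.21 (SE) did not pass edgeR's test without the block (adjusted p = 0.739) and passed it with the block (-0.70 ± 0.10, SE, adjusted p = 0.0028). With hs:wnt8a at 7.5 hpf lmo4b stood at 0.41 ± 0.21 (SE, adjusted p = 1 by edgeR). The log2 fold changes of ism2a were -1.09 ± 0.45 with hs:dkk1b and 0.59 ± 0.41 with hs:wnt8a at 7.5 hpf (SE), at levels near 1 CPM or less. Those of prrx1a were -0.38 ± 0.47 and 0.75 ± 0.51 (SE), also at low levels, with group means of 0.67 to 2.46 CPM. The other LIM-only genes lmo1, lmo2 and lmo3 lay between -1.02 (lmo3 with hs:wnt8a at 5.5 hpf) and 0.55 (lmo3 with hs:dkk1b at 5.5 hpf) over the 4 comparisons without the block. With it, lmo3 was called lower with hs:wnt8a at 5.5 hpf (-1.18 ± 0.23, SE, adjusted p = 0.0356 by edgeR), where the numbers were not shown to pair the libraries. How reads shared by lmo4a and lmo4b, or by prrx1a and prrx1b, were counted is not given in the sources used here, so their separate values are uncertain. Genes listed as partners of the products, the co-receptor genes lrp5 and lrp6 and the LIM partner genes ldb1a, ldb1b, ldb2a and ldb2b, were not called with or without the block. Their log2 fold changes lay between -0.54 and 0.28 over the 4 comparisons. Given the few calls among all genes, this does not show that the partner genes were unchanged.

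The genes whose log2 CPM followed each of the 4 most closely over the 23 libraries differed between them. The libraries share groups, times and depth, so the coefficients are descriptions. For tpbga they were lef1 (Pearson r = 0.95), nkd1 (0.94), the Wnt receptor gene fzd9b (0.94), axin2 (0.93) and sp5a (0.93). For ism1 they were slc43a3b (0.95), the nuclear receptor corepressor gene nrip1a (0.94), the Wnt-inactivating enzyme gene notum1a (0.93), tpbga (0.91) and lef1 (0.91). For lmo4a they were tbx16l (0.94), the caudal homeobox gene cdx4 (0.93), myclb (0.91), zfand5a (0.88) and msx1b (0.87). For prrx1b they were the hairy-related gene her5 (0.93), znfl1c (0.85), znfl1i (0.85), wnt8b (0.85) and dnajb12a (0.83), with many libraries near 0 for prrx1b itself.

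The sibling mean of each cross and time was then subtracted. This removes differences between sibling groups but keeps the transgene effects, which differ between crosses and times. The closest genes were then nkd1 and axin2 for tpbga (both 0.96), slc43a3b for ism1 (0.97), cdx4 and wnt8b for lmo4a (both 0.96) and her5 for prrx1b (0.89). Among the 4 genes, tpbga and ism1 followed each other over the 23 libraries (r = 0.91), tpbga and lmo4a less closely (0.71), and ism1 and lmo4a least among the better measured (0.47). With sibling means subtracted these became 0.89, 0.87 and 0.68. Since all 4 were chosen for like changes at 7.5 hpf, part of these coefficients comes from the choice.

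**Figure D4:**
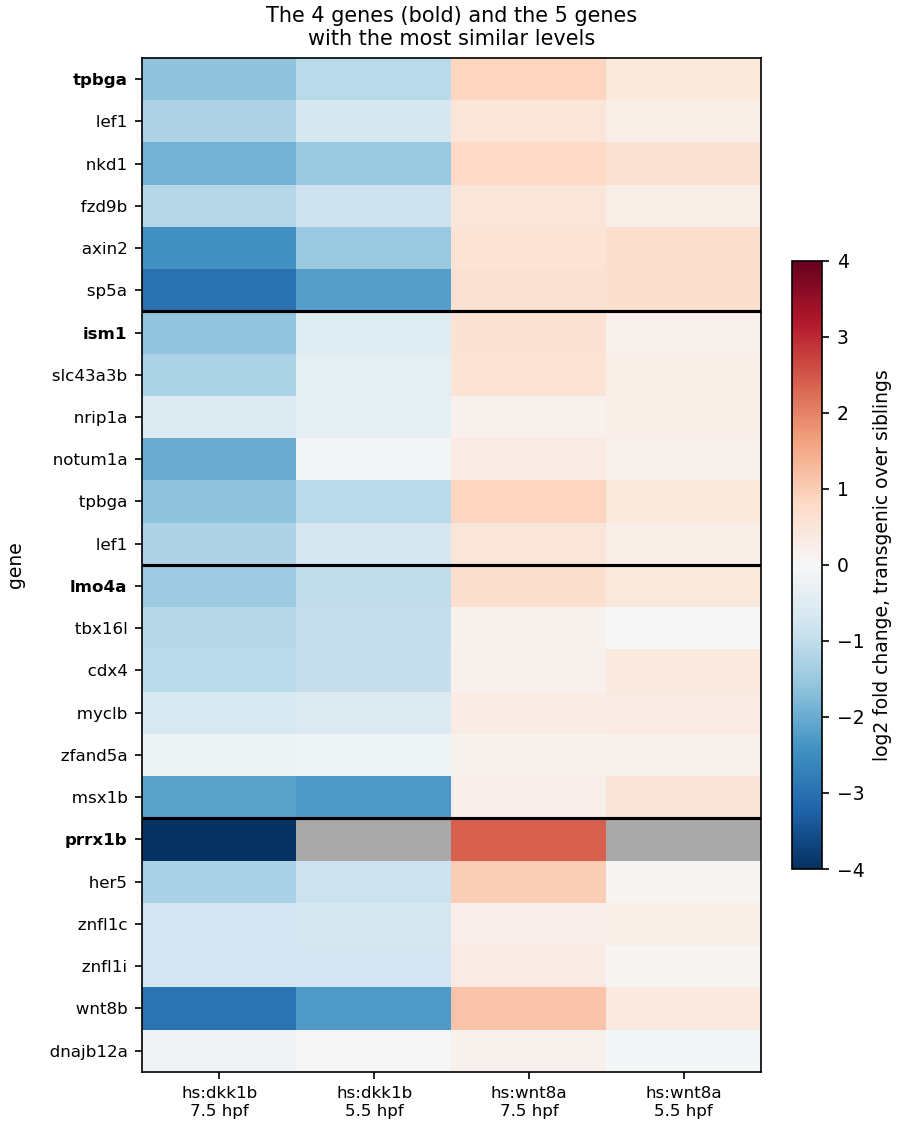
Log2 fold change of transgenic embryos over siblings (colour) in the 4 comparisons (columns) for tpbga, ism1, lmo4a and prrx1b in bold and, under each, the 5 genes with the most similar levels over 23 libraries; grey cells mark prrx1b at 5.5 hpf, which had too few reads. Genes under tpbga are blue in both hs:dkk1b columns, from -2.98 for sp5a at 7.5 hpf, while notum1a under ism1 is at -1.98 at 7.5 hpf and -0.04 at 5.5 hpf.

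These genes were named for their likeness to genes chosen at 7.5 hpf, so their fold changes are given without a test. For notum1a, which followed ism1, the log2 fold change with hs:dkk1b was -1.98 ± 0.31 at 7.5 hpf and -0.04 ± 0.30 at 5.5 hpf (SE). In slc43a3b it was -1.28 ± 0.25 at 7.5 hpf and -0.38 ± 0.23 at 5.5 hpf (SE). Of the genes that followed tpbga, nkd1 was at -1.91 ± 0.20 at 7.5 hpf and -1.48 ± 0.19 at 5.5 hpf, and fzd9b at -1.15 ± 0.18 at 7.5 hpf and -0.81 ± 0.18 at 5.5 hpf (SE). Of the genes that followed lmo4a, tbx16l was at -1.14 ± 0.19 at 7.5 hpf and -0.95 ± 0.19 at 5.5 hpf with hs:dkk1b (SE), but at 0.14 ± 0.18 and 0.00 ± 0.20 with hs:wnt8a. For her5, which followed prrx1b, the log2 fold changes at 7.5 hpf were -1.30 ± 0.26 with hs:dkk1b and 0.98 ± 0.25 with hs:wnt8a (SE).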

How the data were processed

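Per the labels' protocols, RNA was extracted with Trizol and sequenced as Illumina libraries. The authors deposited 1 table per library with whole-number counts, TPM and RPKM for 31743 genes. The build was GRCz11 and edgeR was used, per the submitters' processing notes; aligner, counter and strand use: not given in the sources used here. The deposited TPM values were used for levels between genes, and the deposited RPKM values were not used. A gene name table held 28988 of them, with tpbga as tpbg1b. Coordinates and sequences are not used here.

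Counts of all 23 libraries were fitted by group with edgeR 4.0.16 in R 4.3.3 (TMM, filterByExpr, quasi-likelihood F test, Benjamini-Hochberg adjustment over 19504 genes, threshold 0.05). Each standard error is |log2 fold change| over the root of F. Libraries of a group differed by more than counting noise (chi-square over degrees of freedom 2.88 to 48.3 in 22 pairs). Alternatives were RLE scaling, no filter, DESeq2 1.42.0, only the libraries compared, each library left out, and the replicate number within cross and time as a block (12 blocks). The labels do not say what the replicate numbers mark, but deviations from group means correlated between same-numbered libraries at 0.476 to 0.707 (hs:dkk1b, 5.5 hpf), 0.465 to 0.606 (hs:dkk1b, 7.5 hpf) and 0.307 to 0.726 (hs:wnt8a, 7.5 hpf), and were taken as paired (between different numbers up to 0.107, -0.097 and 0.511); at 5.5 hpf in hs:wnt8a they were -0.087 and -0.068, not paired. The fits were run on simulated data with known fold changes in genes with many reads and the same dispersion for all genes. This does not cover genes with few reads such as prrx1b, or the uneven spread of the real libraries.

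The members and lists were chosen with earlier results of these data known. Named genes are the 4 genes, the transgenes, up to 4 called members per list and comparison with the smallest adjusted p, all tested relatives and partners, the 5 genes with the highest Pearson correlation of log2 CPM (prior count 2, mean of at least 1, no clone names), and genes called in opposite directions at 7.5 hpf with those nearest the threshold; a few list members are named beyond this after their values were seen.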

Additional observations from a re-analysis of the deposited data

How the results depend on the processing

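Of 274 recomputed values, 2 changed sign, and 7 of those with a test lost or gained a call. A further 35, counts of genes called among them, moved in size. The values of the 4 genes at 7.5 hpf have no test and were compared by size alone, within the spread of the libraries; the cause of the changes was not tested. With the replicate block the genes past the threshold with hs:dkk1b became 48 at 5.5 hpf and 146 at 7.5 hpf, against 10 and 30 without it, and with hs:wnt8a 75 at 7.5 hpf, against 19. At 5.5 hpf, where the hs:wnt8a numbers were not shown to pair the libraries, the block gave 113, against 0, and log2 fold changes with hs:wnt8a of 0.49 for tpbga, 0.26 for ism1 and 0.39 for lmo4a, none called. With the block ism1 and lmo4a passed with hs:dkk1b at 5.5 hpf (-0.53 and -0.96). DESeq2 called 27 genes with hs:dkk1b and 5 with hs:wnt8a at 5.5 hpf, 58 and 29 at 7.5 hpf, and tpbga between siblings (0.51). Fits of only the libraries compared called 0 genes with hs:dkk1b at 5.5 hpf (tpbga -1.08, not called), 466 between siblings, against 1508, and 9 with hs:wnt8a at 7.5 hpf; such fits left prrx1b under the filter except with hs:wnt8a at 7.5 hpf (2.38). Added after seeing the data, leaving out both libraries numbered 2 gave 23 genes with hs:dkk1b at 5.5 hpf, and both numbered 1 gave 10 at 7.5 hpf. Leaving out single libraries gave 5 to 25 genes with hs:dkk1b at 5.5 hpf (25 without sibling replicate 2), 15 to 23 at 7.5 hpf, 11 to 17 with hs:wnt8a at 7.5 hpf, and 353 to 2134 between siblings. It gave log2 fold changes of -1.27 to -0.96 for tpbga with hs:dkk1b at 5.5 hpf (called in 3 of 6), -4.80 to -3.39 for prrx1b with hs:dkk1b at 7.5 hpf and -0.40 to 0.16 for lmo4a between siblings, whose sign changed without hs:dkk1b sibling replicates 1 (0.16) and 3 (0.07). Of the 5 genes most like each gene, Spearman correlation shared 2 for tpbga, 2 for ism1, 3 for lmo4a and 1 for prrx1b; subtracting sibling means shared 3 for ism1, 3 for lmo4a and 1 for prrx1b. Depth limits prrx1b, whose libraries at 5.5 hpf had at most 5 reads.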

Other observations

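The genes next to the 4 genes in the RefSeq order of a newer zebrafish assembly did not pass edgeR's test in any of the 4 transgene comparisons (adjusted p = 1 for each of the 7 neighbours in the tables). With hs:dkk1b at 7.5 hpf, the log2 fold changes were -0.34 ± 0.61 for tmem222b and -0.48 ± 0.52 for zgc:175136 beside tpbga, -0.02 ± 0.19 for tasp1 and 0.04 ± 0.15 for sptlc3 beside ism1, and 0.03 ± 0.13 for gorab beside prrx1b (SE). The neighbour furthest from 0 was ccn1l1 beside lmo4a, at -1.32 ± 0.65 at 7.5 hpf and -0.91 ± 0.63 at 5.5 hpf with hs:dkk1b (SE), and the other neighbour of lmo4a, zgc:55461, was at -0.31 ± 0.20 at 7.5 hpf.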
